A study of Saccharomyces cerevisiae with 2 samples.

Results

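The read pairs described here are those of the in-in orientation whose reads map 11 to 412 bp apart, in Micro-C libraries of a swr1Δ strain of budding yeast. They fill 402 of the 10000 distances in the deposited table, and every distance in this range was used in both libraries. They were chosen by distance and orientation and not by their counts. In library A, the library with more in-in pairs, 7799281 of 7944948 in-in pairs (98.2%) fell in it. In library B, 5979563 of 6169934 (96.9%) did. Just outside and just inside the lower end, at 10 and 11 bp, library A had 708 and 678 pairs and library B had 874 and 845. At the upper end, at 412 and 413 bp, the counts were 368 and 325 in library A against 639 and 618 in library B.

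Both libraries come from swr1Δ cells of the W303 background, grown in YPD at 30°C to midlog phase and fixed with 3% formaldehyde for 15 min. MNase was used to a level that left over 95% mononucleosomes, and ligated products were captured by biotin after exonuclease III had removed it from free ends. The strain lacks Swr1, the ATPase of the SWR-C complex, which exchanges H2A for the variant H2A.Z. The sample labels name 2 replicates, but the columns of the table carry no replicate number. The methods call the swr1Δ replicates biological and give more of them than the labels do, and replicates beyond these 2 libraries were not analysed here. No other strain was analysed here, so the values describe swr1Δ and the spread between these 2 libraries, not an effect of the deletion.

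In chromatin, DNA is wrapped around histone octamers that are joined by linker DNA. Micrococcal nuclease (MNase) cuts linkers first and then nibbles the ends toward the octamer, so the lengths of protected DNA report how many nucleosomes a fragment holds and how far its ends were trimmed. Because DNA on the octamer turns one face outward every helical turn, cutting by nucleases within or at the edge of a nucleosome can recur at steps of about 10 bp. In Micro-C, crosslinked fragments are trimmed to mononucleosomes, ligated and sequenced from both ends. A pair of reads a short distance apart can come from the ends of 1 uncut fragment or from a ligated product. The sources used here do not define the orientations, and whether the in-in pairs come from ligation was not tested.

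The distances had a broad distribution with a first peak at mononucleosome size, a valley and a second peak. Peaks were read from the counts after an 11 bp moving mean, which spans about 1 helical turn. The first peak lay at 158 bp in library A and at 151 bp in library B (mean 154.5 ± 4.95 bp, SD, n = 2). The valley lay at 186 bp in library A and at 176 bp in library B. The second peak lay at 263 bp in library A and at 242 bp in library B (252.5 ± 14.8 bp). All 3 landmarks were at a longer distance in library A, by 7 bp at the first peak, 10 bp at the valley and 21 bp at the second peak.

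The second peak stood short of the length of 2 nucleosomes of the first kind. Its distance was 1.66 times that of the first peak in library A against 1.60 times in library B. The gap between the peaks was 105 bp in library A against 91 bp in library B. It is therefore called the second peak here, rather than a dinucleosome peak. Without smoothing, the single distance with most pairs in the whole range was 156 bp in library A (48006 pairs), in the first peak. In library B it was 246 bp (41828 pairs), in the second.

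**Figure D1:**
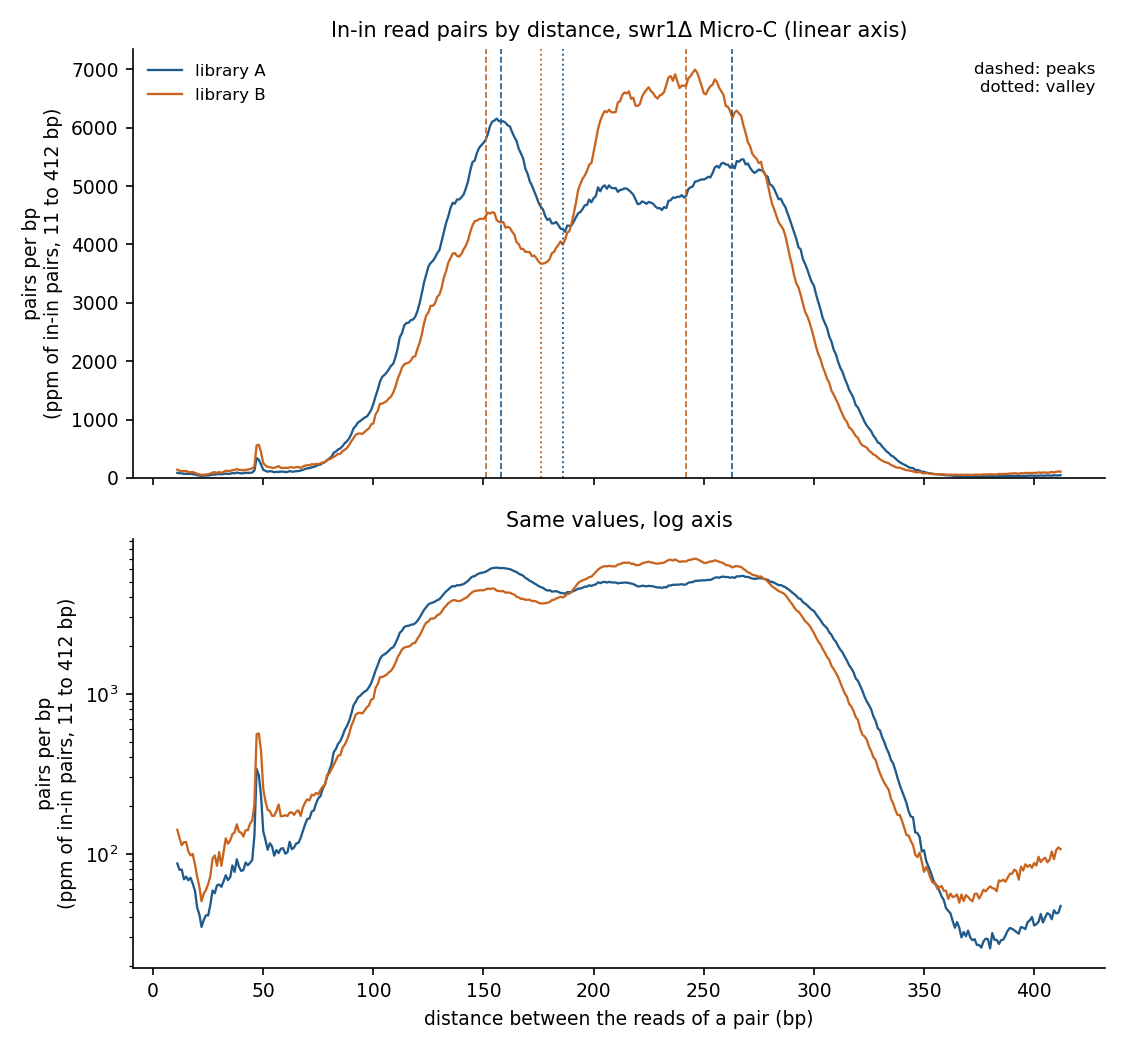
Read pairs per bp, as ppm of the in-in pairs of 11 to 412 bp, against the distance between the reads (bp), on a linear axis (top) and a log axis (bottom), for library A (blue) and library B (orange). The first peak is the higher one in library A, whereas the second is the higher in library B, and on the log axis both libraries show a spike just below 50 bp and a low stretch beyond 350 bp.

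The 2 libraries ranked the peaks in opposite order. In library A the first peak reached 47373 pairs per bp and the second 42009, a ratio of second to first of 0.887. In library B the first peak reached 26734 pairs per bp and the second 40857, a ratio of 1.53. The mean ratio was 1.21 ± 0.45 (SD, n = 2), so the spread between libraries covers both orders. As a share of the pairs in the range, the first peak stood at 6074 ppm per bp in library A against 4471 ppm per bp in library B, and the second at 5386 and 6833 ppm per bp.

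The valley stayed above 50% of the height of either peak in both libraries. It reached 33711 pairs per bp in library A, which was 28.8% below the first peak and 19.8% below the second. In library B it reached 22439 pairs per bp, 16.1% below the first peak and 45.1% below the second. The counting error of such a mean of 11 distances was under 1% of its value in either library. Beyond the valley lay 60.7% of the pairs in library A (60.7% to 60.8%, Wilson 95% interval) against 72.7% (72.7% to 72.8%) in library B, or 66.7 ± 8.5% over both (SD, n = 2). These intervals cover counting error only. No molecular identifiers are described for these libraries, so copies of 1 molecule may count as several pairs.

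The widths depended on the level at which they were taken. Because the valley lay above 50% of the height of the first peak, a width at that level ran through both peaks. It extended from 120 to 302 bp in library A, and from 119 to 301 bp in library B (181.8 ± 0.64 bp, SD, n = 2). Taken midway between peak and valley, a level chosen after the counts were seen, the first peak was 26.6 bp wide in library A (144 to 170 bp) and 21.3 bp wide in library B (143 to 164 bp). At the level midway to the valley, the second peak ran from 240 to 283 bp in library A, a width of 43.3 bp. In library B it ran from 197 to 276 bp, a width of 78.9 bp. That level was 37860 pairs per bp in library A against 31648 in library B. It follows the depth of the valley, 19.8% below the second peak in library A against 45.1% in library B. Widths midway to the valley were therefore taken at different fractions of peak height in the 2 libraries. On its lower side, the width in library A ended where the 11 bp mean fell toward a dip of 36376 pairs per bp at 228 bp. At 209 bp library A again lay above the level, with 38709 pairs per bp, and that stretch is not in its width. The 2 widths (61.1 ± 25.2 bp) therefore do not show that the second peak was narrower in library A.

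Between valley and second peak, library A had a further rise that library B lacked as a separate feature. In library A the 11 bp mean climbed to 38709 pairs per bp at 209 bp, fell to 36376 at 228 bp, which was 6.03% lower, and then climbed to the second peak. In library B the same distances had 38004 and 39495 pairs per bp, a rise of 3.92%. Counting error was at most 0.16% of each of these values. With a 21 bp mean the rise in library A was still present, with its maximum at 209 bp and its minimum at 229 bp, and library B had no maximum between its valley at 176 bp and its second peak at 244 bp. At that smoothing library A thus had 3 maxima above 100 bp and library B had 2.

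The outer edges of the distribution differed in how closely the libraries shared them. On the lower side, the counts reached 10% of the first peak at 86.7 bp in library A against 85.1 bp in library B, 50% at 120 and 119 bp, and 90% at 147 and 141 bp. The lower edge thus lay within 2 bp in both libraries up to 50% of the peak. On the upper side, the counts fell to 90% of the second peak at 283 bp in library A against 265 bp in library B. They fell to 50% at 305 and 292 bp and to 10% at 331 and 320 bp. The upper edge lay at a longer distance in library A at all 3 levels. The median distance was 209 bp in library A against 220 bp in library B, and the middle 50% of pairs ran from 158 to 260 bp in library A, and from 170 to 257 bp in library B.

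The labels give a size selection of about 250 to 350 bp on a gel before adaptors were added. Of the in-in pairs in the range, distances of 250 to 350 bp held 30.4% in library A against 29.5% in library B. Distances below 250 bp held 69.4% of library A against 70.1% of library B, and distances above 350 bp held 0.245% and 0.44%. The first peak in both libraries, and the second peak in library B, therefore lay below the selected lengths. How the distance between reads relates to the length of the selected DNA is not given in the sources used here.

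A fine ripple ran along the rising flank and both peaks at the resolution of single bases, though in library A it was faint just past the first peak. It was measured as the log2 count minus a smooth trend. With a 31 bp moving mean as trend and all distances from 26 to 397 bp, the sinusoid that took up most variance had a period of 11.05 bp in library A against 11 bp in library B, but it took up only 2.77% and 3.26% of the variance. That fit also contains the spike just below 50 bp and the thin counts at both ends. A second fit, chosen after the counts were seen, used distances of 100 to 320 bp and a local cubic trend of 21 bp, which follows the curvature of the peaks. There the best period was 10.20 bp in both libraries, and the sinusoid took up 34.9% of the variance in library A against 43.6% in library B.

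**Figure D2:**
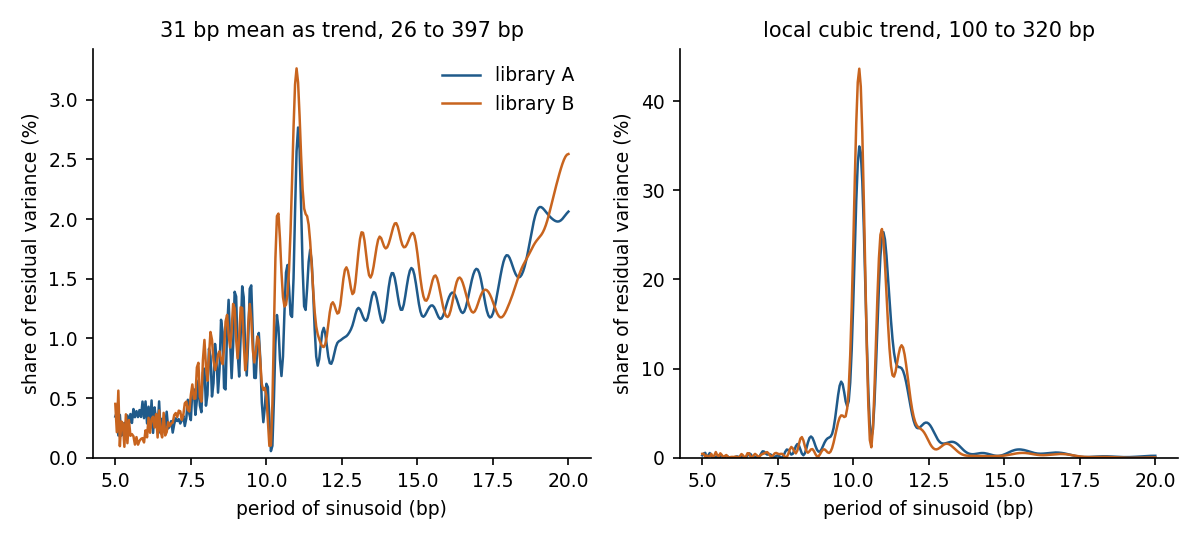
Share of the residual variance (%) taken up by a sinusoid against its period (bp), for library A (blue) and library B (orange), with a 31 bp moving mean as trend over 26 to 397 bp (left) and a local cubic trend over 100 to 320 bp (right). The left maxima are at 11.05 and 11 bp with under 4% of the variance, and the right ones at 10.20 bp, with a lower maximum near 11 bp.

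Over 100 to 320 bp as a whole, the ripple was small but larger than counting error. In the fit over 100 to 320 bp its amplitude, corrected for the response of the trend, was 0.0171 in library A against 0.0253 in library B on the log2 scale, with counting standard errors of 0.00066 and 0.00082. The fitted sinusoid thus peaked 1.19% above the trend in library A against 1.77% in library B, and single crests were higher or lower than this. The residuals around the trend had an SD of 0.0249 in library A against 0.0329 in library B, which was 2.96 and 3.14 times the SD that counting error alone gives. Residuals of distances 10 bp apart were correlated (r = 0.81 in library A against 0.82 in library B), and those of distances 5 bp apart were opposed (r = -0.86 and -0.87). These r are over 211 and 216 pairs of distances within a library, which share a trend and are not independent.

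The crests lay at nearly the same distances in both libraries. From 85 to 320 bp, 23 crests were found in each library. The first 20, from 92 to 287 bp, including faint ones of library A at 163 and 173 bp, matched within 1 bp. Of these 20, 8 fell on the same base. In library A they lay at 92, 103, 113, 124, 135, 146, 155, 163, 173, 183, 193, 203, 216, 226, 235, 247, 257, 267, 278 and 287 bp. In library B they lay at 92, 103, 113, 124, 135, 145, 154, 163, 172, 184, 194, 204, 215, 225, 235, 246, 256, 266, 277 and 287 bp. The last 3, beyond 290 bp, were 2 or 3 bp apart between the libraries. Across the 221 distances of 100 to 320 bp the residuals of the 2 libraries had r = 0.83, given as a description, since neighbouring distances are not independent.

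**Figure D3:**
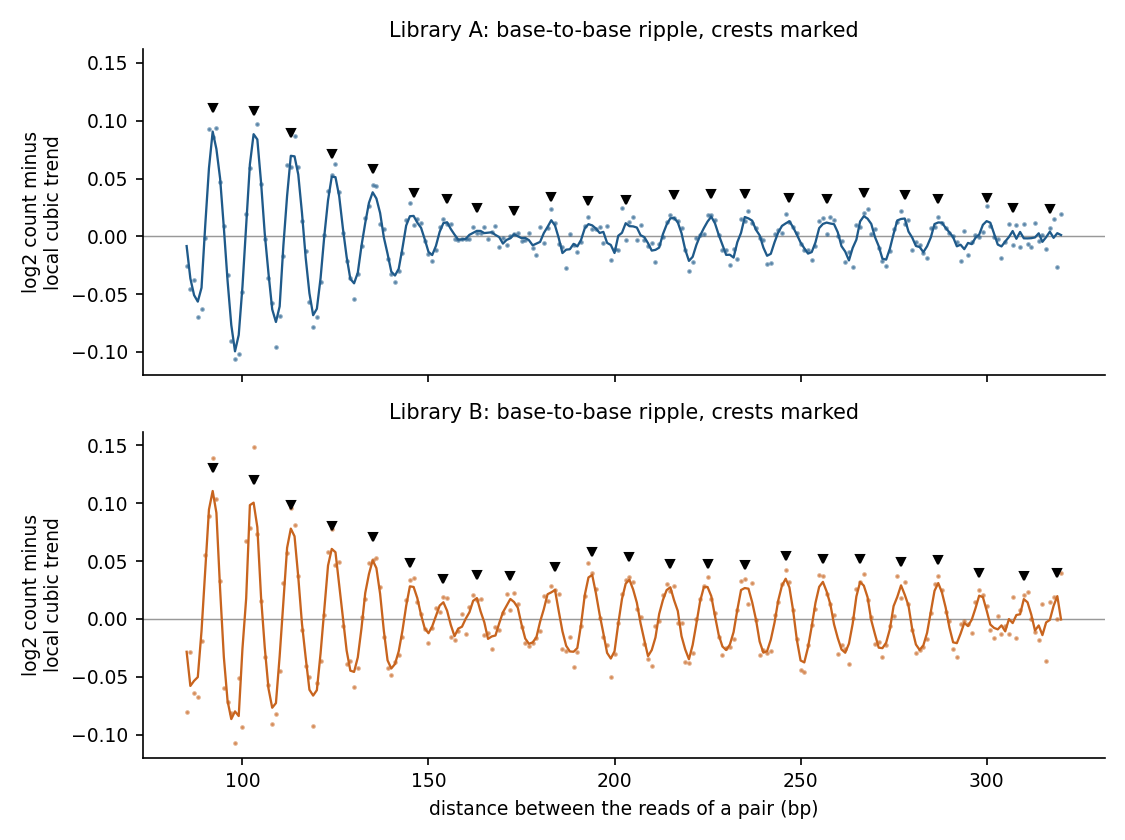
Log2 count minus a local cubic trend of 21 bp against the distance between the reads (bp), for library A (top) and library B (bottom). Points are single distances, lines are 3 bp means and black triangles mark the 23 crests of each library, of which the 20 from 92 to 287 bp lie within 1 bp of each other in the 2 libraries.

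The mean spacing and the height of the crests varied along the distribution. Over the 20 matched crests the spacing averaged 10.3 ± 1.15 bp in library A against 10.3 ± 0.81 bp in library B (SD over 19 spacings within a library). Below the first peak, from 92 bp to 146 bp in library A or 145 bp in library B, it averaged 10.8 bp and 10.6 bp. From there to 203 bp in library A or 204 bp in library B, across the first peak and the valley, it averaged 9.5 bp and 9.83 bp. From 203 and 204 bp to 287 bp, under the second peak, it averaged 10.5 bp and 10.4 bp. The middle stretch had the lowest mean in both libraries. The SD of single spacings does not measure the error of these means, and the order of the stretches was not tested. The local cubic fit had a lower maximum at 11 bp in library A against 10.95 bp in library B, with 25.3% and 25.7% of the variance.

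The crests were highest on the rising flank of the first peak. At 92 bp they stood 0.09 above the trend in library A against 0.11 in library B on the log2 scale, where the counts were 6948 and 4431 pairs. At 135 bp they stood 0.04 and 0.05 above it. Beyond 150 bp, the 14 crests up to 290 bp stood between 0.0017 and 0.0174 above the trend in library A, and between 0.0144 and 0.0380 in library B. The lowest in library A, at 163 and 173 bp, stood 0.0047 and 0.0017 above it. Each is a mean of 3 distances, and the counting SD of 1 distance was 0.0084 over 100 to 320 bp. These crests were therefore not set apart from counting error in library A. All 23 crests stood further above the trend in library B than in library A. Fitted apart, distances of 200 to 320 bp gave a period of 10.45 bp in both libraries, with amplitudes of 0.0117 ± 0.0009 in library A against 0.0243 ± 0.0011 in library B on the log2 scale (counting standard error). Distances of 100 to 200 bp gave 10.15 bp in library A against 10 bp in library B, with amplitudes of 0.0249 ± 0.0010 and 0.0324 ± 0.0012. The ripple in library B was thus larger than in library A by more than counting error in both stretches.

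Shorter than the first peak, both libraries had a narrow spike. At 45 bp there were 713 pairs in library A against 966 in library B. At 47, 48 and 49 bp there were 2647, 2412 and 1804 pairs in library A against 3338, 3386 and 2637 pairs in library B, and at 51 bp 954 and 1278. The 3 bases averaged 2.98 times the mean of the flanks (41 to 45 bp and 51 to 55 bp) in library A against 3.15 times in library B. They held 0.088% of the pairs of library A against 0.157% of those of library B. The labels state reads of 50 bp or 100 bp, without saying which library had which. The spike lay 1 to 3 bp below the shorter read length. No such spike stood at the longer one: at 99, 100 and 101 bp the counts were 9078, 9909 and 10903 in library A against 5498, 5573 and 6506 in library B, on the rising flank.

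**Figure D4:**
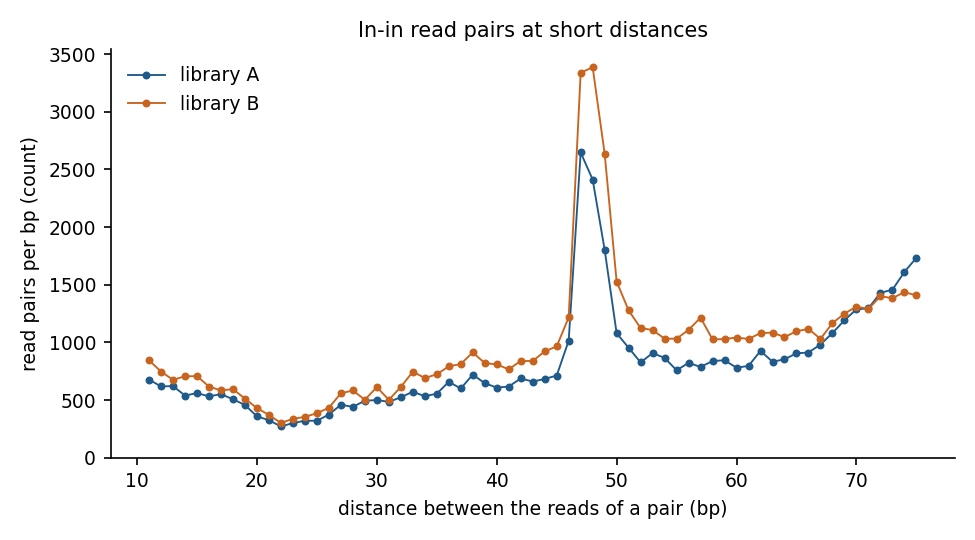
Read pairs per bp (count) against the distance between the reads from 11 to 75 bp, for library A (blue) and library B (orange), each point 1 distance. Both libraries have their lowest count at 22 bp and a spike at 47 to 49 bp, which reaches 2647 pairs in library A against 3386 in library B.

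The range ended in troughs on both sides. The shortest distances had a minimum at 22 bp in both libraries, with 272 pairs in library A against 302 in library B. At the long end the minimum was 200 pairs at 380 bp in library A against 296 pairs at 366 bp in library B. From 296 pairs the counts of library B climbed to 639 at 412 bp, and those of library A to 368. Both libraries thus began a further rise before the range ended, and the fewest pairs at any distance, 524 in both libraries together, still allowed a comparison.

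The libraries were then compared base by base, as the log2 ratio of library A to library B after scaling each to its own pairs in the range. With 1 library on each side this compares the libraries and carries no p-value. The 95% counting interval left out 0 at 386 of the 402 distances, with library A higher at 181 and library B higher at 205. Differences were therefore beyond counting error nearly everywhere, which at this depth says little of their size. Past a fold of 1.5 lay 130 distances (32.3%), against 55.3% of the 935 in-in distances of 1 to 10000 bp that had at least 100 pairs in both libraries together. Library A was higher past this fold at 36 of the 402 distances, against 36 of those 935 (3.85%). Library B was higher at 94 of the 402, against 481 of the 935 (51.4%). The 935 distances include the 402, and all 36 of them at which library A was higher past this fold lay between 11 and 412 bp. Beyond the range lay 523 of the 935, and library A had 98.2% of its in-in pairs in the range against 96.9% in library B.

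The sign of the ratio, read from the 11 bp means, changed 4 times. Library B was higher from 11 to 77 bp (median log2 ratio -0.67), library A from 78 to 188 bp (0.35), library B from 189 to 277 bp (-0.36), library A from 278 to 355 bp (0.54) and library B from 356 to 412 bp (-1.08). Under the first peak, from 78 to 188 bp, lay 39.4% of library A against 30.8% of library B. From 189 to 277 bp lay 44.1% of library A against 55.4% of library B, the widest gap of the 5 stretches at -11.3 percentage points. From 278 to 355 bp lay 15.6% of library A against 12.2% of library B. The 2 outermost stretches held 0.73% and 0.206% of library A against 1.12% and 0.404% of library B.

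The ratios were moderate where most pairs lay and larger in the tails. No distance from 78 to 277 bp passed a fold of 1.5. The largest ratio between those limits was 0.52 at 165 bp (95% counting interval 0.49 to 0.54), where library A had 45038 pairs and library B had 24160. The lowest was -0.54 at 233 bp (-0.56 to -0.52), with 36054 pairs in library A against 40262 in library B. In the upper edge the ratio reached its highest value of the range, 0.91 (0.85 to 0.97) at 322 bp, with 8158 pairs in library A against 3327 in library B. Its lowest value was -1.41 (-1.60 to -1.21) at 408 bp, with 304 and 618 pairs. Summed over all distances, 11.9% of the pairs of one library would have to change distance to give the distribution of the other (the total variation distance).

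**Figure D5:**
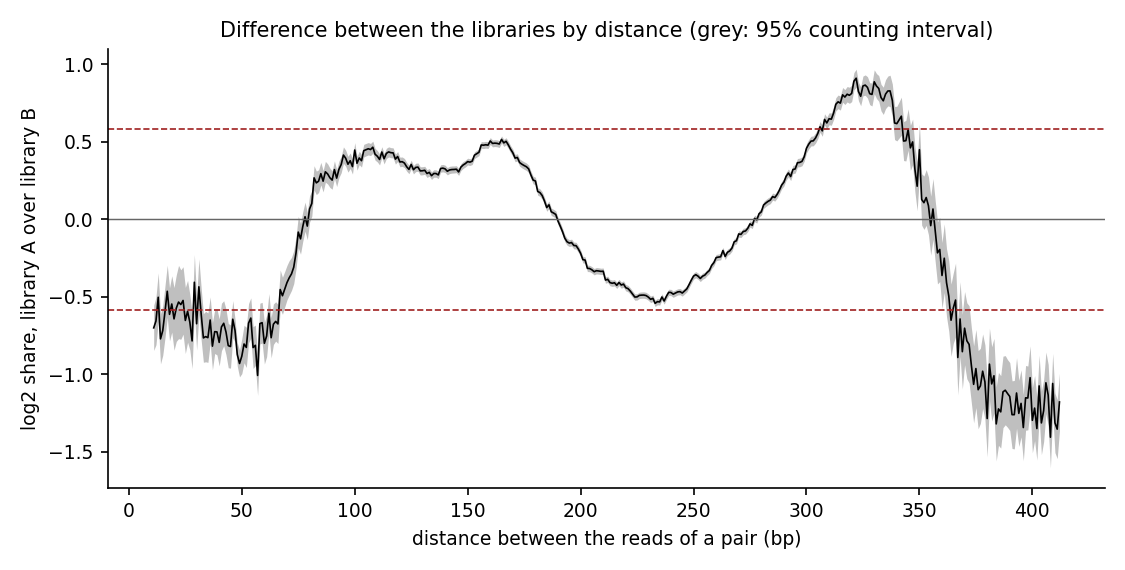
Log2 ratio of library A to library B, each scaled to its own in-in pairs of 11 to 412 bp, against the distance between the reads (bp), with the 95% counting interval in grey and a fold of 1.5 in either direction as dashed lines. The line stays within the dashed lines from 78 to 277 bp, where it crosses 0 near 188 bp from library A higher to library B higher, and leaves them in the upper edge (0.91 at 322 bp) and at both ends.

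The raw counts at single distances, which carry the larger total of library A, had a different order in places. At 120 bp library A had 22283 pairs and library B 13221, and at 140 bp they had 37499 and 22944. At 200 bp they had 37388 and 33378, and at 220 bp 36584 and 38101, so that library B had more pairs at that distance in spite of its smaller total. At 240 bp library A had 37779 and library B 40192. At 260 bp library A had 41865 and library B 38098, and at 300 bp 25702 and 14340. At 200 and 260 bp library A thus had more pairs but the smaller share of its own total, with log2 ratios of shares of -0.22 and -0.25. With library A moved by the 7 bp between the first peaks of the 11 bp means, the total variation distance was 11.9%, and no other displacement was run.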

How the data were processed

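Micro-C was performed by the authors on a swr1Δ strain, and they deposited counts of read pairs at each distance from 1 to 10000 bp, in 4 orientations and without normalization. CASAVA 1.8.2, Bowtie2 and the sacCer3 build are named in the submitters' processing notes, with no role given. Pair filters and removal of duplicates are not given in the sources used here. The in-in columns of 2 libraries were used, and their sums equalled the totals in the table. The other 6 columns with values per library in other orientations were not used, and neither were the compaction scores per gene.

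The range of distances and the settings were chosen with earlier results of these data known. Peaks were local maxima of an 11 bp moving mean over 100 to 200 bp and 220 to 380 bp. The demand for a local maximum was added for the first peak after the counts were seen, since in library B the highest value lay at 200 bp, on the way up to the second peak. Distances named are the ends of the range, peaks, valleys, level crossings, crests, extremes and sign changes of the ratio and the read lengths. Steps of 20 bp, the spike with its flanks, the troughs and the rise near 209 bp were chosen after their values were seen. Sinusoids of 5 to 20 bp in steps of 0.05 bp were fitted by least squares to log2 counts minus a trend, and amplitudes were divided by the response of the trend. A crest was a maximum of a 3 bp mean of the residuals from the local cubic trend, within 3 bp on each side.

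With 7799281 and 5979563 pairs, counting error was below 1% at every distance with over 10000 pairs. Intervals are 95% and cover counting error only. Values over both libraries are mean ± SD (n = 2), and with 1 group no test between groups was possible. Peak positions, the period and amplitude of the local cubic fit and the coverage of the ratio intervals were checked on simulated distributions with known values. Those distributions held 2 Gaussian peaks and a ripple of constant period. Widths, edges, crests, the spike and the fit with the 31 bp mean were not checked in this way. The scripts ran under Python 3.11.15 with matplotlib 3.10.9, pandas 2.3.3, numpy 2.4.6 and scipy 1.17.1. Alternatives covered the smoothing, trend, range, split, scaling and fold.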

Additional observations from a re-analysis of the deposited data

Results flagged for a closer look

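In-in pairs at 1 to 10 bp, just below the range described, entered no comparison other than the 935 background distances of the library ratio, and were far above the limit of 3 that a count of 0 allows. There were 23413 in library A (0.295% of its in-in pairs) and 25553 in library B (0.414%). They fell with distance, with 6330 pairs in library A and 6587 in library B at 1 bp and 708 and 874 at 10 bp.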

How the results depend on the processing

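With 2 libraries of 1 strain, no difference between groups could be tested, and each mean rests on the 2 libraries named beside it. Means over both libraries of the peak positions, the second peak width and the peak height ratio moved by less than the SD between libraries. This held with raw counts and with 5 bp and 21 bp means. Each library alone gave 151 to 158 bp for the first peak, 242 to 263 bp for the second, 0.887 to 1.53 for the height ratio, 43.3 to 78.9 bp for the second width and 60.7% to 72.7% for the share beyond the valley. For the first width it gave 181 to 182 bp, for the period 11 to 11.05 bp and for the amplitude 0.0441 to 0.0468. The first peak averaged 179 bp when the end of its range was allowed, and its width of 181.8 bp was 180.1, 180.5 and 183.6 bp with raw counts, a 5 bp mean and a 21 bp mean, and 24.0 bp midway to the valley. At 50% of its full height the second peak was 174 bp wide, since that level runs through both peaks. The share beyond the valley, 66.7%, was 58.2% with a split at 200 bp and 29.7% with one at 250 bp.

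The mean period of 11.03 bp was 10.98 bp with a 21 bp trend, 15.6 bp below 200 bp (20 bp, the end of the search, in library A) and 10.25 bp above 200 bp. It was 10.20 bp over 100 to 320 bp with local cubic trends of 21 and 41 bp and with the 31 bp mean. The amplitude of 0.0455 was 0.0475 and 0.0494 with trends of 21 and 41 bp, 0.0829 below and 0.0182 above 200 bp, and 0.0212, 0.0207 and 0.0214 in those 3 fits over 100 to 320 bp. The width midway to the valley, the end of the range and the fits over 100 to 320 bp were added once the data had been seen. The distances past a fold of 1.5, 130, were 325 at a fold of 1.2 and 37 at a fold of 2, and 13 of 40 windows of 10 bp passed a fold of 1.5. The total variation distance, 11.9%, was 11.8% with 11 bp means. Scaling to all pairs, or to in-out and out-in pairs, and the ripple of other orientations were planned and not run, since those columns were not used. No paired analysis was possible because both columns belong to 1 group. The cause of these changes was not tested where no construction is named.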
